A study of Mus musculus with 10 samples.

Results

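The acinar cells of the exocrine pancreas release digestive enzymes when a secretagogue, a hormone or transmitter that triggers secretion, raises calcium in their cytosol. Levels of 9 genes of that pathway, chosen by name, were examined: the receptor genes Cckar, Chrm3, Chrm1 and Sctr, the calcium release channel genes Itpr2 and Itpr3, the calcium pump gene Atp2a2, and the store-operated entry genes Orai1 and Stim1. All 9 were among the 24421 genes of the deposited table, and all 9 were among the 13688 genes with enough counts to be tested. RNA was sequenced from a piece of the pancreas tail of female mice aged 12 weeks, with 1 library per mouse. Every mouse carried Ptf1aCreER, a Cre recombinase made under the acinar gene Ptf1a and active only with tamoxifen, and the nuclear reporter nTnG. Insr WT mice had 0 floxed copies of Insr, the insulin receptor gene (n = 3), Insr Het mice had 1 (n = 3) and Insr KO mice had 2 (n = 4), a floxed allele being one that Cre can delete. Tamoxifen dosing and diet are not given in the sources used here. Cre under Ptf1a is directed at acinar cells, so other cells of the piece keep their Insr alleles, and the piece as a whole was sequenced. By its title the series asks whether the insulin receptor of acinar cells drives enzyme production and inflammation.

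Cholecystokinin and acetylcholine act on acinar cells through receptors that couple to the G protein Gq and phospholipase C. The inositol trisphosphate so made opens channels in the endoplasmic reticulum, calcium leaves this store in waves that start at the apical pole, and enzyme granules fuse with the membrane there. A pump then refills the store, and when the store runs low the sensor STIM1 opens the ORAI1 channel in the plasma membrane. Secretin acts through Gs and cyclic AMP, and in the pancreas it is best known for bicarbonate secretion by duct cells. Sustained calcium signals in acinar cells are a recognised route to pancreatitis.

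Gene counts ranged from 11718559 to 19024351 per library, and levels are given as CPM, a gene's counts relative to the library size scaled by edgeR's TMM factors, on which 3 counts correspond to 0.0501 to 0.395 CPM. The 28 acinar enzyme genes used as tissue markers took 16.3% of the counts of WT-2404, while WT-1860 was at 60.8% and WT-2067 at 74.1%. Their share was 73.9% to 78.8% over the Het libraries and 65.0% to 80.3% over those of KO mice, so WT-2404 stood apart, with the lowest share of acinar transcripts. Its label also gives an RNA kit (RNeasy Micro, after pulverising) that the labels of the other 9 do not name. The summed level of 5 acinar transcription factor genes was 47.1 CPM in WT-2404 and 415 to 811 CPM in the other 9 libraries. Macrophage and fibroblast markers were highest in WT-2404, at 1451 CPM summed over 6 genes and 4324 CPM over 7 genes, against at most 572 and 1806 CPM elsewhere. Insr itself was at 29.8 ± 9.88 CPM in WT (± SD, n = 3), 38.5 ± 8.92 in Het (n = 3) and 31.5 ± 5.95 in KO mice (n = 4), with overlapping ranges. Gene-level counts cannot show an exon lost in some of the cells, so Insr did not check the labels, and the groups are those of the labels throughout. In a tissue piece, fewer cells of a type and less RNA per cell cannot be told apart, and this holds for each level below.

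Per length, the 9 genes spanned a wide range, and Cckar, the receptor for cholecystokinin, stood first. CPM was divided by the kilobases of exon in the gene model, the union of all annotated exons of a gene. The transcripts present can be shorter, so the order of genes with near levels may depend on this length. Cckar was at 79.7 ± 33.4 CPM per kb (SD, n = 10 libraries). Atp2a2 followed at 17.1 ± 3.52 CPM per kb and Itpr3 at 3.97 ± 0.760 CPM per kb. Each of these 3 genes was above the next in 10 of 10 libraries. Orai1 (2.58 ± 0.622 CPM per kb) was above Stim1 (2.05 ± 0.536 CPM per kb) in 7 of 10 libraries, a difference within their spread. Stim1 was above Itpr2 (1.49 ± 0.341 CPM per kb) in 10 of 10 libraries although their ranges overlapped, and Itpr2 was above Chrm3 (1.16 ± 0.597 CPM per kb) in 8. The lowest levels were those of Chrm1 at 0.642 ± 0.297 and Sctr at 0.443 ± 0.271 CPM per kb, and Chrm1 exceeded Sctr in only 6 of 10 libraries. Within WT the order of the means was the other way, with Chrm1 at 0.446 and Sctr at 0.480 CPM per kb. Orai1 and Stim1 were at 3.16 and 1.61 CPM per kb in WT but at 2.45 and 2.44 in Het libraries. The muscarinic receptor genes Chrm3 and Chrm1 were in the same order in 10 of 10 libraries.

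**Figure D1:**
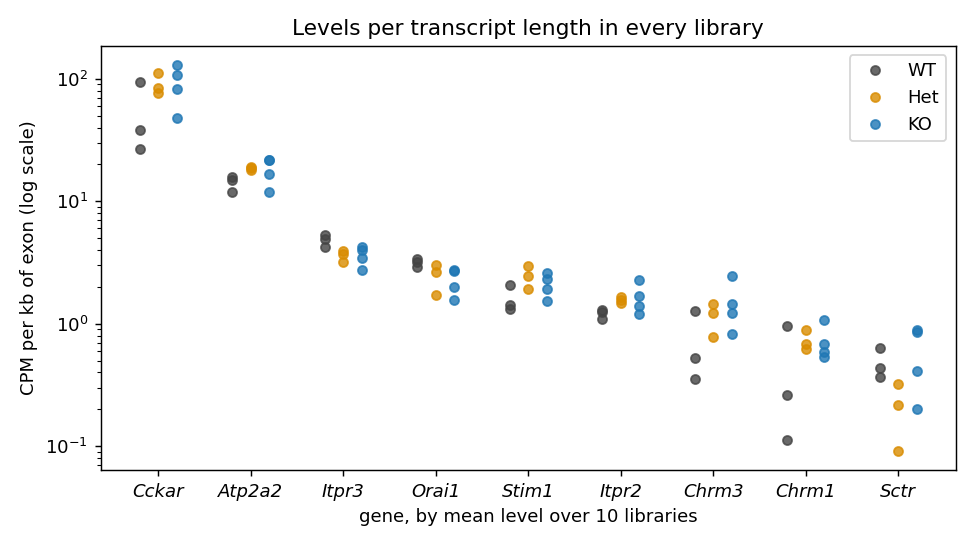
Each point is 1 library, coloured by genotype. The vertical axis is CPM per kilobase of exon on a log scale, and genes are ordered by their mean over the 10 libraries, from Cckar at 79.7 to Sctr at 0.443 CPM per kb.

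Promoter sequence was read for the 4 genes whose ratios within a library are compared further on, the channel pair Itpr3 and Itpr2 and the entry pair Orai1 and Stim1. The RefSeq promoter table (GRCm38.p6) held 5 of the 9 members, these 4 and Chrm3. The 250 bases before the RefSeq start of each gene are shown 5′ to 3′ on the gene's own strand, with capitals marking CANNTG, the E-box core bound by basic helix-loop-helix factors, the family of the acinar factor PTF1A.
Itpr3, chr17:27057054-27057303, plus strand: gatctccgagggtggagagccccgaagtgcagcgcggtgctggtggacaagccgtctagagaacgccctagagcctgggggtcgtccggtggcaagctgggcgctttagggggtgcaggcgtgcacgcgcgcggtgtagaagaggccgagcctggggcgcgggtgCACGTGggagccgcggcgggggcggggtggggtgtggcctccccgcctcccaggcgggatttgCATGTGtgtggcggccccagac
Itpr2, chr6:146502224-146502473, minus strand: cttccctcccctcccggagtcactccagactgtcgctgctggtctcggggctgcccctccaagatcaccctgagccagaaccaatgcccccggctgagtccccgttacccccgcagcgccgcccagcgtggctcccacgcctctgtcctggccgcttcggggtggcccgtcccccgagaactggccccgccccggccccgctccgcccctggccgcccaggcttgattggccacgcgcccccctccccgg
Orai1, chr5:123014824-123015073, plus strand: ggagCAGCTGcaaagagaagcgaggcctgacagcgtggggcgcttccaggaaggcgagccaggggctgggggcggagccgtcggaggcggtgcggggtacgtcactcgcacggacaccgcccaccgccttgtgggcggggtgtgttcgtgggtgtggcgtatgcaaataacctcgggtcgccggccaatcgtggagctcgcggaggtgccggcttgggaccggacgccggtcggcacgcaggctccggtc
Stim1, chr7:102267569-102267818, plus strand: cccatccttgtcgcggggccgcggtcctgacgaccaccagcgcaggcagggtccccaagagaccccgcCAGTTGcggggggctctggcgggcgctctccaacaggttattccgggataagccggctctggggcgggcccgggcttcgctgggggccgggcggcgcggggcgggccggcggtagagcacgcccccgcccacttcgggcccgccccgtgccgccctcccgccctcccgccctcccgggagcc
Itpr3 held 2 such cores, Orai1 and Stim1 held 1 each, and the Itpr2 window held 0. Of all 32851 promoter windows of this length, 66.2% held at least 1. GGGCGG, the GC box, was found on either strand 1 time in Itpr3, 4 times in Itpr2, 3 times in Orai1 and 8 times in Stim1, counting overlapping matches, and in 32.7% of all windows. The 4 windows had a GC content of 70.8% to 78.4%, against a median of 52.4% over all windows. A match describes the letters only and is not evidence of a bound site.

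Mice with 2 floxed alleles were first compared with mice that had 0. None of the 9 genes passed an adjusted p of 0.05 in edgeR's quasi-likelihood test (0 of 9, smallest adjusted p = 0.193), beside 0 of 13688 genes in all, or 0%. DESeq2 called 0 of the 9 as well, while it called 1011 genes in all, 2.14% of genes as higher and 5.27% as lower. At an unadjusted p under 0.05 edgeR had 3221 genes, 9.6% of genes higher and 13.9% lower in KO libraries, and 1 member in each direction, Chrm3 higher and Itpr3 lower. The log2 fold change was above 0 for 7 members and below 0 for 2, Itpr3 and Orai1, beside 51.8% of all genes above 0 and 48.2% below. The median over the members was 0.38, against 0.025 over all tested genes. By library size alone, where the median of all genes shifted to -1.17, the members' median was -0.80, and Itpr3 and Orai1 were among the 20.7% of genes called lower. Itpr3 and Orai1 were also the only members whose KO and WT ranges did not overlap, both lower, beside 9.17% of all genes with ranges apart in that direction, and 0 members were higher in this way, beside 6.74%.

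In Het against WT libraries, which differ by 1 floxed allele, again 0 of 9 members passed in edgeR (smallest adjusted p = 0.218) and 0 of 13688 genes, or 0%. DESeq2 called 0 members and 391 genes, 1.17% as higher and 1.93% as lower. The unadjusted p was under 0.05 for 2714 genes in edgeR, 8.26% of genes higher and 11.6% lower, and for 1 member, Stim1, which was higher. Here 6 members had a log2 fold change above 0 and 3 below, Sctr, Itpr3 and Orai1, beside 50.3% of all genes above 0 and 49.7% below, and the members' median was 0.38 against 0.0047 over all genes. By library size alone these medians were -0.88 and -1.36, and Sctr, Itpr3 and Orai1 were among the 22.8% of genes called lower. With counts outside the enzyme list as library size, chosen after seeing the data, the members' median was 0.18 in KO and 0.12 in Het against WT, where that of all genes was -0.16 and -0.27. The ranges of the groups were apart for 4 members, Itpr2 and Atp2a2 higher and Itpr3 and Sctr lower in Het libraries, where 11.3% and 13.5% of all genes were apart in those directions. These values and those of KO against WT share the same 3 WT libraries. KO against Het had 0 members and 0 genes past the threshold in edgeR, or 0%, and 0 in DESeq2. The members' fold changes were above 0 for 4 and below 0 for 5, beside 51.4% and 48.6% of all genes, and ranges were apart for 0 members, beside 1.3% of all genes higher and 1.16% lower. Only Sctr had an unadjusted p under 0.05 there, among 103 genes, with 0.402% of all genes higher and 0.351% lower.

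**Figure D2:**
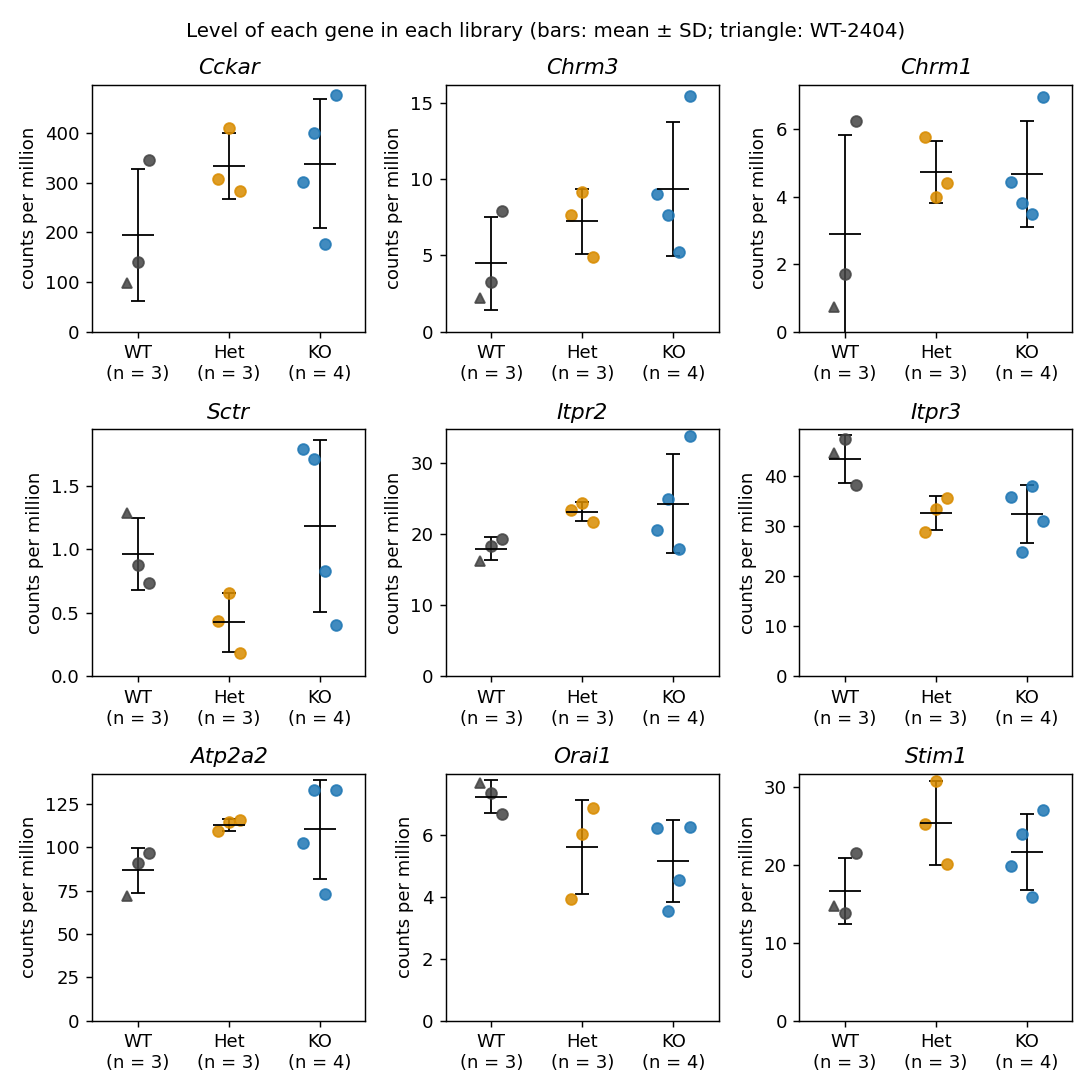
Each panel shows 1 gene, with CPM on the vertical axis from 0, 1 point per library, and the group mean ± SD as bars. The triangle is WT-2404, the lowest library for Cckar, Chrm3, Chrm1, Itpr2 and Atp2a2.

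**Figure D3:**
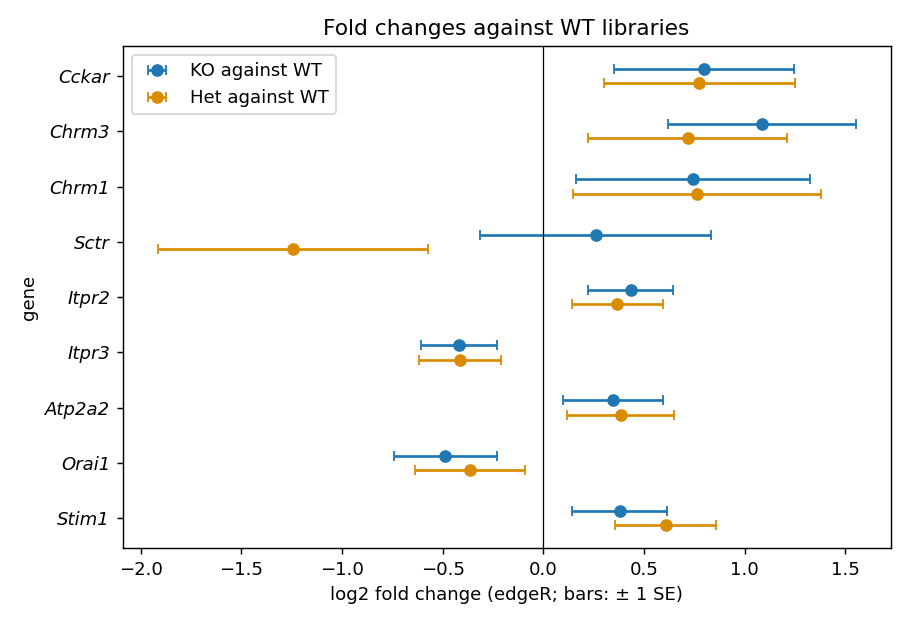
Points are edgeR log2 fold changes of each gene in KO and in Het against WT libraries, and bars are 1 SE in each direction. Itpr3 and Orai1 lie below 0 in both comparisons, Sctr below 0 in Het only, and the others above 0.

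Cckar encodes the cholecystokinin receptor of acinar cells, and it lies on chromosome 5 at positions 53697776 to 53707705 of GRCm38, minus strand. Its level was 98.03 CPM in WT-2404, 139.8 CPM in WT-1860 and 346 CPM in WT-2067. The Het libraries were at 307, 409 and 283 CPM (Het-2066, Het-1770 and Het-2042). The KO libraries were at 302, 399, 176 and 476 CPM (KO-2079, KO-2070, KO-2124 and KO-2126). WT-2404 and WT-1860 were the lowest of the 10, and WT-2067 lay among the Het and KO libraries. Averaged by group, Cckar was at 195 ± 133 CPM for WT (± SD, n = 3), 333 ± 67.1 in Het (n = 3) and 338 ± 129 in KO mice (n = 4). Log2 fold changes were 0.80 (SE 0.45, edgeR adjusted p = 0.290) in KO and 0.77 (SE 0.47, edgeR adjusted p = 0.352) in Het against WT, within the spread between mice.

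Chrm3 encodes the M3 muscarinic receptor, the main acetylcholine receptor of acinar secretion, and lies on chromosome 13 (9875486 to 10360847, minus strand). Its levels were 2.22, 3.28 and 7.90 CPM in WT-2404, WT-1860 and WT-2067, and 7.63, 9.13 and 4.91 CPM in Het-2066, Het-1770 and Het-2042. In KO-2079, KO-2070, KO-2124 and KO-2126 they were 9.02, 7.64, 5.21 and 15.5 CPM. The order of the libraries was close to that of Cckar, with WT-2404 lowest and KO-2126 highest in both. KO against WT gave 1.08 (SE 0.47, unadjusted p = 0.0397, adjusted p = 0.193 in edgeR), where WT-2067 lay inside the KO range. Het against WT gave 0.72 (SE 0.49, edgeR adjusted p = 0.411).

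Chrm1 encodes the M1 muscarinic receptor, which acinar cells also carry, and lies on chromosome 19 (8663789 to 8683587, plus strand). It was counted 29 to 102 times per library. The WT libraries spanned 0.735 CPM (WT-2404), 1.69 CPM (WT-1860) and 6.25 CPM (WT-2067), nearly the whole range of the data, while the Het libraries lay between 4.01 and 5.79 and the KO libraries between 3.50 and 6.97 CPM. The log2 fold changes of 0.74 (SE 0.58, edgeR adjusted p = 0.450) in KO and 0.76 (SE 0.61, edgeR adjusted p = 0.482) in Het were no larger than the spread of the WT mice.

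The values of these 3 Gq-coupled receptor genes depended on WT-2067 in the same way. Leaving it out kept only WT-2404 and WT-1860 as WT, the libraries with the lowest enzyme shares, 16.3% and 60.8%. In KO against WT without WT-2067, edgeR gave Cckar at 1.52 (adjusted p = 0.0326), Chrm3 at 1.78 (adjusted p = 0.0273) and Chrm1 at 2.01 (adjusted p = 0.0224). All 3 were past the threshold, where 6.22% of all genes were called higher and 7.42% lower. The part of the share in these values was not tested. In Het against WT without WT-2067, Cckar (1.49, adjusted p = 0.0488) and Chrm1 (2.03, adjusted p = 0.0330) passed in edgeR, where 4.16% of genes were called higher. Chrm3 rose to 1.41 there but did not pass (edgeR adjusted p = 0.0627). Without WT-2404 the KO against WT values were 0.46 for Cckar, 0.72 for Chrm3 and 0.22 for Chrm1, and the Het against WT values 0.46, 0.37 and 0.26, in fits that called 0% of all genes. Chrm1 in KO against WT was at 0.48 without WT-1860 and 0.49 without KO-2126.

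Sctr encodes the secretin receptor and lies on chromosome 1 (120006894 to 120063536, plus strand). It had the fewest counts, 12 to 77 in WT, 3 to 7 in Het and 4 to 29 in KO libraries. The levels were 1.29, 0.875 and 0.735 CPM in WT-2404, WT-1860 and WT-2067, and 0.438, 0.652 and 0.184 CPM in Het-2066, Het-1770 and Het-2042, so that every Het library was below every WT library. In KO-2079, KO-2070, KO-2124 and KO-2126 it was at 1.79, 1.71, 0.829 and 0.404 CPM, a range that held all 3 WT libraries. Het against WT was at -1.25 (SE 0.67, edgeR adjusted p = 0.301), KO against WT at 0.26 (SE 0.57, edgeR adjusted p = 0.809) and KO against Het at 1.51 (SE 0.65, unadjusted p = 0.0394, adjusted p = 1.0 in edgeR). Summed over 8 genes, ductal markers were at 556 to 1186 CPM in WT, 258 to 439 in Het and 179 to 474 in KO libraries, and 7 of the 8 were lower in both comparisons with WT. Their part in the Sctr values was not tested.

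Itpr2 and Itpr3 encode the type 2 and type 3 inositol trisphosphate receptors, the calcium release channels of the apical endoplasmic reticulum in acinar cells, and their values against WT had opposite signs, except by library size alone, where both were below 0. Itpr3 lies on chromosome 17 (27057304 to 27122223, plus strand), and 2 annotated genes share 234 of its exonic bases, of which only the microRNA gene Mir7677 has its own row in the table. Itpr3 was at 44.7, 47.4 and 38.2 CPM in WT-2404, WT-1860 and WT-2067. It was at 28.8, 33.4 and 35.6 CPM in Het-2066, Het-1770 and Het-2042, and at 35.8, 24.9, 38.1 and 31.0 CPM in KO-2079, KO-2070, KO-2124 and KO-2126. Every Het and KO library lay below the lowest WT library, WT-2067, with KO-2124 closest to it. The fold changes were -0.42 in KO (SE 0.19, unadjusted p = 0.0458, adjusted p = 0.205 in edgeR) and -0.41 in Het (SE 0.20, edgeR adjusted p = 0.269), and KO against Het was at -0.0033 (SE 0.19).

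Itpr2 lies on chromosome 6 (146108299 to 146502223, minus strand). Its levels were 16.1, 18.4 and 19.4 CPM in WT-2404, WT-1860 and WT-2067, below the 23.3, 24.4 and 21.7 CPM of Het-2066, Het-1770 and Het-2042. In KO-2079, KO-2070, KO-2124 and KO-2126 they were 20.5, 24.9, 17.9 and 33.8 CPM, so 3 of the 4 KO libraries were above all WT libraries and KO-2124 was not. KO against WT was at 0.43 (SE 0.21, edgeR adjusted p = 0.233), or 0.23 without KO-2126, and Het against WT at 0.37 (SE 0.22, edgeR adjusted p = 0.353).

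The ratio of Itpr3 to Itpr2 counts within a library does not depend on how libraries are scaled, but tissue makeup can still change it. WT-2404 had 2.77 Itpr3 counts per Itpr2 count, WT-1860 had 2.58 and WT-2067 had 1.97. The Het libraries were at 1.24, 1.37 and 1.64 in the order Het-2066, Het-1770 and Het-2042, all below WT. KO-2124, at 2.12, lay inside the WT range, while KO-2079 at 1.75, KO-2070 at 1.0 and KO-2126 at 0.917 lay below it. The highest ratios were in WT-2404, WT-1860, KO-2124 and WT-2067, with enzyme shares of 16.3%, 60.8%, 65.0% and 74.1%. The lowest were in KO-2070 and KO-2126, at 80.3% and 80.1%. Het-2066, at 73.9%, went the other way with its ratio of 1.24. The part of the share in the ratio was not tested. The mean log2 ratio was 1.27 ± 0.26 for WT (± SD, n = 3), 0.49 ± 0.21 in Het (n = 3) and 0.44 ± 0.60 in KO mice (n = 4). The differences of -0.83 in KO against WT (p = 0.143, two-sided exact permutation test) and -0.78 in Het against WT (p = 0.1 by the same exact test, the smallest that 3 against 3 mice allow) both had an adjusted p of 0.36 over the 9 ratio tests made. For 4 against 3 mice the smallest p is 0.0286.

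Atp2a2 encodes SERCA2, the pump that returns calcium to the endoplasmic reticulum, and lies on chromosome 5 (122453513 to 122502225, minus strand). It was at 72.1, 91.2 and 96.8 CPM in WT-2404, WT-1860 and WT-2067, and at 109, 114 and 116 CPM in Het-2066, Het-1770 and Het-2042, all above WT. The KO libraries divided, with KO-2070 and KO-2126 highest of all at 133 CPM each, KO-2079 at 102 and KO-2124 at 73.0 CPM, next to WT-2404. KO against WT gave 0.35 (SE 0.25, edgeR adjusted p = 0.405), or 0.22 without WT-2404, and Het against WT 0.38 (SE 0.26, edgeR adjusted p = 0.411).

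Stim1, on chromosome 7 (102267806 to 102437319, plus strand), encodes the calcium sensor of the store, and Orai1, on chromosome 5 (123015074 to 123030456, plus strand), the channel it opens. Their fold changes against WT also had opposite signs, again except by library size alone. Orai1 was at 7.70, 7.38 and 6.68 CPM in WT-2404, WT-1860 and WT-2067 and at 3.95, 6.06 and 6.87 CPM in Het-2066, Het-1770 and Het-2042. KO-2079, KO-2070, KO-2124 and KO-2126 were at 6.24, 3.56, 4.56 and 6.26 CPM, all below WT, while Het-2042 overlapped the WT range. The fold changes were -0.49 in KO (SE 0.25, edgeR adjusted p = 0.259) and -0.36 in Het (SE 0.27, edgeR adjusted p = 0.447), the latter at -0.16 without Het-2066. Stim1 was at 14.7, 13.8 and 21.5 CPM in WT-2404, WT-1860 and WT-2067, and at 25.3, 30.7 and 20.1 CPM in Het-2066, Het-1770 and Het-2042. Its KO levels, 19.8, 24.0, 15.9 and 27.1 CPM in the same mouse order as above, overlapped those of WT. Het against WT was at 0.61 (SE 0.25, unadjusted p = 0.0314, adjusted p = 0.218 in edgeR) and KO against WT at 0.38 (SE 0.24, edgeR adjusted p = 0.336), or 0.61 without WT-2067.

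Within a library there were 53.7 and 31.2 Orai1 counts per 100 Stim1 counts in the highest and lowest WT library and 15.1 to 31.6 in the KO libraries, with KO-2079 just above WT-2067. The log2 ratio was -1.17 ± 0.44 in WT (± SD, n = 3), -2.18 ± 0.58 in Het (n = 3) and -2.07 ± 0.48 in KO mice (n = 4). KO against WT differed by -0.90 (p = 0.0857, exact permutation, adjusted 0.36) and Het against WT by -1.01 (p = 0.2, exact permutation, adjusted 0.36). TMM-scaled levels of Stim1 ran with the enzyme share, as given below, and the part of the share in this ratio was not tested. The ratio of Chrm3 to Cckar, by contrast, was nearly the same in the 3 WT libraries. It was -5.44 ± 0.030 on the log2 scale (SD, n = 3). TMM-scaled levels varied 3.53-fold for Cckar and 3.56-fold for Chrm3 among them. The TMM factor, 0.878 to 3.53 over the WT libraries, divides both levels alike and cancels in the ratio. Unscaled, Cckar had 5653 of 18588327 gene counts in WT-2067, 5870 of 16942368 in WT-2404 and 2558 of 11718559 in WT-1860. Chrm3 had only 60 to 133 counts in the WT libraries. The small spread of the ratio may thus be accidental, and it was not tested. The ratio was -5.55 ± 0.26 in Het (± SD, n = 3) and -5.19 ± 0.34 in KO mice (n = 4). For this ratio the exact permutation p was 0.286 for KO against WT and 0.7 for Het against WT (adjusted 0.429 and 0.9).

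**Figure D4:**
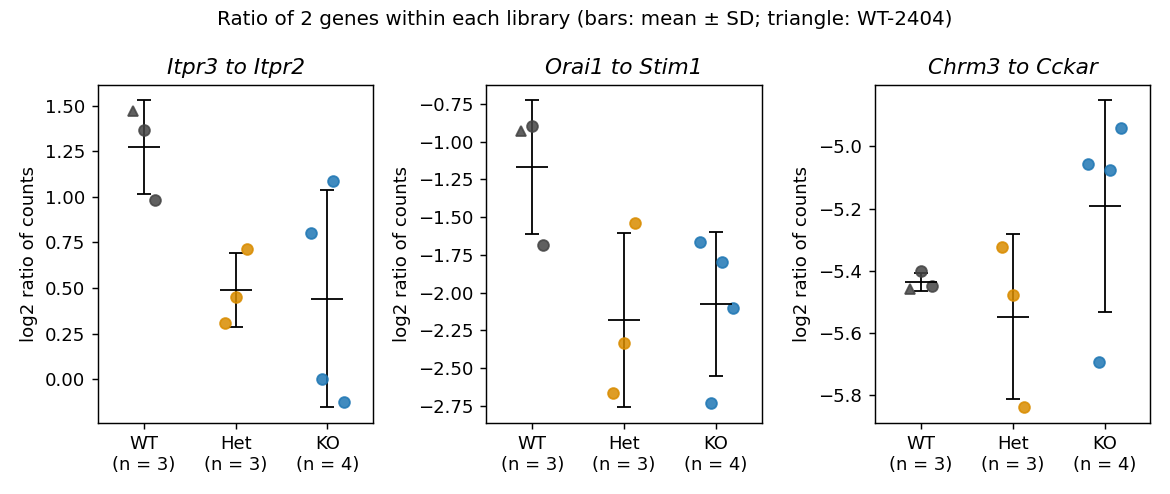
Each panel gives the log2 ratio of the counts of 2 genes in 1 library, with group means ± SD as bars and WT-2404 as a triangle. Itpr3 to Itpr2 is higher in all 3 WT libraries than in the 3 Het libraries. Chrm3 to Cckar lies within -5.46 to -5.40 in WT, on 60 to 133 Chrm3 counts per library.

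The members were next set against the acinar enzyme share of each library. On the TMM scale Cckar was higher where the share was higher, with Pearson r = 0.878 (p = 3.0e-05) and Spearman rho = 0.879 (p = 0.00159) between log2 CPM and the share over 10 libraries (permutation tests, 100000 permutations, adjusted p = 0.00027 and 0.00477 over the 9 genes). Without WT-2404 and WT-1860, the libraries farthest from the median share, r was 0.963 and rho 0.762. Atp2a2 gave r = 0.762 and rho = 0.927 (permutation, adjusted p = 0.00166 and 0.00369), and r = 0.956 and rho = 0.881 without those libraries. Stim1 gave r = 0.686 and rho = 0.782 (permutation, adjusted p = 0.00803 and 0.0242), and r = 0.837 and rho = 0.595 without them. Level and share come from the same library, so the points are not free of shared error. CPM is divided by the TMM factor, which was 3.53 in WT-2404 and 0.596 in KO-2126, at shares of 16.3% and 80.1%. Unscaled, Cckar had 5870 of 16942368 gene counts in WT-2404 and 4711 of 16601654 in KO-2126. Atp2a2 had 4316 and 1315 counts there, and Stim1 880 and 268. Before this scaling these genes were thus not lower in WT-2404 than in KO-2126. The relations were not computed without the factors.

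Chrm3 had r = 0.822 and rho = 0.721 (permutation, adjusted p = 0.00177 and 0.0346), with r = 0.648 and rho = 0.452 without those 2 libraries. The relation of Chrm1 (r = 0.902, rho = 0.539, permutation adjusted p = 0.00576 and 0.145) rested on them, since r was 0.326 and rho 0.0952 without. Itpr2 passed by rank only (r = 0.680, rho = 0.891, permutation adjusted p = 0.0799 and 0.00477), and r was 0.798 and rho 0.810 without them. Itpr3 ran the other way, with r = -0.647 and rho = -0.758 (permutation, adjusted p = 0.0590 and 0.0265), and r = -0.638 and rho = -0.548 without the 2 libraries. For Orai1 (r = -0.438, rho = -0.467) and Sctr (r = -0.295, rho = -0.285) the adjusted permutation p was 0.201 or more. Each genotype has fewer than 6 libraries, so r was not computed within groups, and the fit with both genotype and share is given next. WT-2404 and WT-1860 have the lowest shares, while WT-2067 lies among the Het and KO libraries.

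**Figure D5:**
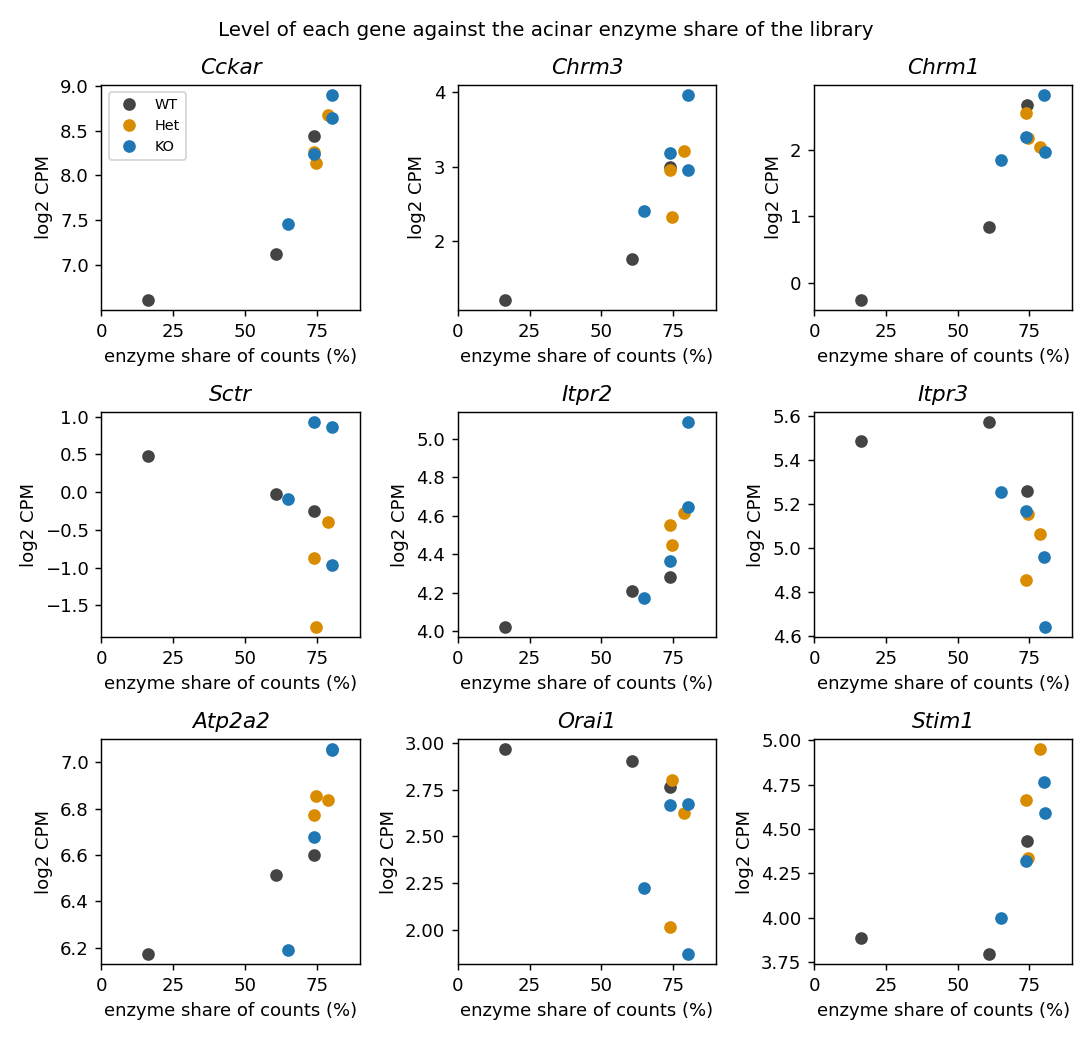
Each panel plots log2 CPM of 1 gene against the percent of the library's counts taken by 28 acinar enzyme genes, 1 point per library, coloured by genotype. Cckar, Atp2a2 and Stim1 are higher where the share is higher, Itpr3 is lower, and WT-2404 lies alone at 16.3%. CPM is divided by the TMM factor, which runs lower where the share is higher.

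With the enzyme share as a covariate, KO against WT was at 0.12 for Cckar (SE 0.34), 0.40 for Chrm3 (SE 0.39), 0.07 for Atp2a2 (SE 0.25), 0.13 for Stim1 (SE 0.26) and 0.23 for Itpr2 (SE 0.24), all smaller than without it. Chrm1 was at -0.035 (SE 0.39), and Sctr was farther from 0 than without the covariate, at 0.57 (SE 0.76). Itpr3 and Orai1 were at -0.31 (SE 0.21) and -0.43 (SE 0.31), also nearer 0 than the -0.42 and -0.49 without the covariate. The edgeR adjusted p was 0.908 or more for all 9 members in that fit, and 0 of 13688 genes passed. The macrophage markers summed to 367 to 1451 CPM in WT, 193 to 303 in Het and 114 to 421 in KO libraries, with 6 of 6 lower in both comparisons with WT. Fibroblast markers were at 1220 to 4324 CPM in WT, 494 to 954 in Het and 437 to 1097 in KO libraries. Smooth muscle markers were at 43.6 to 74.5, 35.4 to 43.8 and 14.5 to 48.1 CPM, and nerve and glia markers at 4.65 to 12.5, 4.47 to 8.10 and 2.83 to 7.11 CPM in WT, Het and KO. Lymphoid markers were at 12.0 to 29.5, 5.88 to 6.24 and 2.12 to 17.0 CPM in the same order, with 7 of 7 lower in both comparisons with WT. Islet markers were at 469 CPM in WT-2404 and at 3020 CPM or more elsewhere, with 6 of 7 higher in KO and 7 of 7 in Het against WT. The 4 endothelial and the 4 adipocyte markers were also higher in both. No gene of these lists was at 0 in all libraries, and their part in the members' values was not tested.

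Among themselves the members formed a correlated set and a pair. Across the 10 libraries, Pearson r of log2 CPM was 0.66 to 0.93 for every pair among Cckar, Chrm3, Chrm1, Itpr2, Atp2a2 and Stim1, highest for Cckar with Chrm3. Without WT-2404 the range was 0.43 to 0.93, with Chrm1 and Atp2a2 at 0.43 in place of 0.66. Itpr3 and Orai1 had r = 0.79 with each other (0.75 without WT-2404), and Itpr3 had r of -0.64 to -0.79 with the 6 others (-0.55 to -0.74 without it). Sctr had r between -0.41 and 0.06 with every other member. These are descriptions over 10 libraries that share their depth and tissue makeup. All levels of a library are also divided by the same TMM factor, from 0.596 in KO-2126 to 3.53 in WT-2404. This alone can raise r between genes, and r without it was not computed. The tested genes most like Cckar were Man1a (r = 0.994), Klhdc10 (r = 0.993) and Srpr (r = 0.993), and 703 genes had r above 0.9 with it. Man1a encodes a mannosidase that trims glycans of secreted proteins and Srpr a subunit of the signal recognition particle receptor, which docks ribosomes at the endoplasmic reticulum. Most like Itpr3 were C5ar2 (r = 0.987), a receptor gene for complement C5a, Adcy7 (r = 0.976), an adenylyl cyclase gene, and Dynll1 (r = 0.976), a dynein light chain gene. C5ar2 was at 0 to 2.24 CPM. Rusc1, Lrfn3 and Ndufs8 were most like Atp2a2 (r = 0.984, 0.979 and 0.977).

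The wider pathway was described through 118 further genes in 10 lists. The table held 116 of them, and 101 had enough counts for a test. None passed in edgeR in any of the 3 comparisons (0 of 101). At an unadjusted p under 0.05 there were 10 higher and 16 lower in KO against WT, beside the 9.6% and 13.9% of all genes given above, and 6 higher and 14 lower in Het against WT, beside 8.26% and 11.6%. In KO against Het there were 0. These counts are near the background. The genes named next had the smallest p of their list in a direction and did not pass, with edgeR adjusted p of 0.116 or more. Macrophage and lymphoid markers were lower against WT as well, and the part of cell types in the values of these genes was not tested.

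Upstream of calcium, the receptor list had 5 of 10 genes tested. In KO against WT 3 of these 5 were above 0, beside 51.8% of all tested genes, a share that stands beside each list below too. Grpr, the receptor for gastrin-releasing peptide, was at 0.771 ± 0.670 CPM over 3 WT mice (± SD) against 2.36 ± 1.51 CPM over 4 KO mice. Of 16 G protein and phospholipase C genes, 6 were above and 10 below 0 in KO against WT. Plcb4 and Plcb1, phospholipase C beta genes, were at 0.97 (SE 0.33) and 0.89 (SE 0.39), while their relatives Plcb2 and Plcb3 were at -1.01 (SE 0.45) and -0.35 (SE 0.17). The Plcb4 ranges did not overlap, with 2.57 to 4.59 CPM in WT and 4.98 to 9.22 in KO libraries. In the cyclic AMP arm, 5 of 14 were above 0. The adenylyl cyclase genes Adcy9 and Adcy6 were at 0.97 (SE 0.23) and 0.61 (SE 0.26) with ranges apart in KO against WT, and Adcy7 and Adcy3 at -1.34 (SE 0.42) and -0.79 (SE 0.35). Adcy9 was at 10.7 ± 3.30 CPM over 3 WT mice (± SD) against 20.9 ± 3.73 CPM over 4 KO mice.

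The protein kinase C and D list had 2 of 10 genes above 0, Prkcz at 0.78 (SE 0.23) and Prkce at 0.54 (SE 0.24), in KO against WT. Marcks, a substrate of protein kinase C, was at 86.5 ± 14.8 CPM over 3 WT mice (± SD) against 50.5 ± 5.70 CPM over 4 KO mice, with ranges apart. Prkcb was at -1.03 (SE 0.29). Among 12 tested release channels and regulators 5 were above 0. Cd38, which makes the calcium-releasing messenger cyclic ADP-ribose, was at 16.2 ± 12.7 CPM over 3 WT mice (± SD) against 4.47 ± 2.42 CPM over 4 KO mice, with overlapping ranges. Erlin2, needed for the turnover of activated inositol trisphosphate receptors, was at -0.53 (SE 0.19) with ranges apart.

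Of 8 tested pumps and exchangers, 4 were above and 4 below 0. Slc8b1, the mitochondrial sodium-calcium exchanger gene, was at 0.60 (SE 0.19) and the plasma membrane pump gene Atp2b1 at -0.60 (SE 0.19) in KO against WT, both with ranges apart. Slc8a1, the plasma membrane sodium-calcium exchanger gene, was at -1.34 (SE 0.39). Atp2c2, a pump gene of the secretory pathway, was at 0.735 to 22.2 CPM in WT and 22.0 to 34.3 in KO libraries. In the store-operated entry list, 5 of 7 tested genes were above 0. Saraf, which slows STIM1-driven entry, was at 51.6 ± 20.03 CPM over 3 WT mice (± SD) against 99.7 ± 26.1 CPM over 4 KO mice, and Orai2 at 0.53 (SE 0.28). Piezo1, a mechanically gated channel gene, was at -0.78 (SE 0.29).

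Calcium buffers and decoders had 7 of 17 tested genes above 0. Hspa5, a chaperone that also binds calcium in the store, was at 264 ± 73.8 CPM over 3 WT mice (± SD) against 425 ± 108 CPM over 4 KO mice. Calm2, a calmodulin gene, was at -0.81 (SE 0.23) and the transcription factor gene Nfatc3 at -0.42 (SE 0.16), both with ranges apart in KO and in Het against WT. Of 6 tested genes of mitochondrial calcium uptake, 4 were above 0 in KO against WT. Mcu, the mitochondrial uniporter gene, was at 9.25 ± 0.611 CPM over 3 WT mice (± SD) against 6.79 ± 0.473 CPM over 4 KO mice, and Smdt1, its small regulator gene, at 0.32 (SE 0.18), each with ranges apart. Among 6 genes of calcium-gated and other ion channels and ion transporters, 2 were above 0 in KO against WT. The potassium channel gene Kcnn4 was at 16.3 ± 6.26 CPM in WT (± SD, n = 3), 5.45 ± 2.80 in Het (n = 3) and 6.68 ± 3.18 in KO mice (n = 4). The chloride cotransporter gene Slc12a2 was at -0.66 (SE 0.20) in KO and -0.60 (SE 0.21) in Het against WT. For both, every Het and KO library was below every WT library.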

How the data were processed

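RNA from pancreas tail pieces of 10 mice was sequenced, with a stranded mRNA kit per the protocol in 9 of the 10 labels. The authors deposited raw counts per gene symbol, 1 column per mouse. DRAGEN, STAR, Cufflinks and the build mm10 are named in the submitters' processing notes, and the counting tool, annotation and strand setting are not given in the sources used here, so overlapping and antisense genes are uncertain. Another allele, which every mouse carried, is not reported here. A label counts 1 WT mouse more, not analysed here. Reads in no gene (2.59% to 8.71% of counts) and ambiguous reads (0.101% to 0.584%) were left out.

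All 10 libraries were fitted together with edgeR 4.0.16 (filterByExpr with a minimum count of 10, TMM, glmQLFit with robust estimation, glmQLFTest, two-sided), with Benjamini-Hochberg adjusted p-values over all 13688 tested genes (threshold 0.05). SE came from the quasi-F statistic. Log2 CPM used a prior count of 2, and ratios added 0.5 to each count. The script was tested on simulated data. Ratios used exact permutation tests over mice. Alternatives were DESeq2 1.42.0, other scalings and filters, the 2 groups alone, an enzyme covariate and leaving out each library. P-values of the group comparisons set a difference against the spread between mice. Those of the correlations with the enzyme share came from permuting all 10 libraries regardless of genotype, so they also hold differences between the groups. Positions and exonic lengths are those of GENCODE M21 (GRCm38), which is the mm10 assembly. Of the pathway lists, up to 2 genes per direction with the smallest p were named, and for Cckar, Itpr3 and Atp2a2 the 3 genes with the highest r. Members and lists were chosen with earlier results of these data known.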

Additional observations from a re-analysis of the deposited data

How the results depend on the processing

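By library size alone, 2835 genes and 2 members (Itpr3 and Orai1) passed in KO against WT, and 3125 genes and 3 members (Sctr, Itpr3 and Orai1) in Het against WT, all lower. The median of all genes was then -1.17 and -1.36, and these signs turned: in KO, Cckar -0.15, Sctr -1.11, Itpr2 -0.80, Atp2a2 -0.86 and Stim1 -0.80, and in Het, Cckar -0.20, Chrm3 -0.29, Itpr2 -0.94, Atp2a2 -0.88 and Stim1 -0.68. DESeq2 called 1011 and 391 genes. With the enzyme share as a covariate Chrm1 was at -0.035 in KO and -0.037 in Het. The cause of these shifts was not tested.

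KO against Het values near 0 also changed sign. By library size alone Chrm1 was at 0.044, Itpr3 at 0.22, Atp2a2 at 0.014 and Orai1 at 0.031. Itpr3 was at 0.0033 without the filter and 0.010 with only the 2 groups, and Chrm1 at 0.0017 with the covariate. With counts outside the enzyme list as library size, chosen after seeing the data, Chrm1 was at 0.035, Itpr3 at 0.093 and Atp2a2 at 0.015. Against WT that scaling turned no sign, but gave 0.22 in KO and 0.094 in Het for Itpr2, 0.13 and 0.12 for Atp2a2, 0.18 and 0.34 for Stim1, -0.61 and -0.70 for Itpr3, -0.70 and -0.65 for Orai1, and 0.048 in KO for Sctr.

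Leaving out 1 library at a time gave 0 to 1933 genes and 0 to 3 members called in KO against WT, and 0 to 1158 genes and 0 to 2 members in Het against WT, both maxima without WT-2067. That fit kept WT-2404 and WT-1860, the libraries with the lowest enzyme shares, as the WT group. Sctr in KO against WT ranged from -0.041 to 0.55. KO against Het ranged from -0.19 to 0.21 for Cckar, -0.27 to 0.15 for Chrm1, -0.14 to 0.16 for Itpr2, -0.11 to 0.10 for Itpr3, -0.14 to 0.091 for Atp2a2 and -0.32 to 0.053 for Orai1. The log2 ratio of Chrm3 to Cckar in Het against WT ranged from -0.22 to 0.035, and in KO against Het those of Itpr3 to Itpr2 and Orai1 to Stim1 from -0.26 to 0.14 and -0.13 to 0.43. Sctr rests on 3 to 77 counts. No paired analysis was possible because the groups share no mouse numbers.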
